A study of Mus musculus with 9 samples.

Results

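The nuclear genes of oxidative phosphorylation were followed here across naive and stimulated mouse CD4+ T cells. Members were the rows whose mouse symbol starts with Nduf, Uqcr, Cox4, Cox5, Cox6, Cox7, Cox8 or Atp5, or is Cyc1 or Cycs. Of 98 such rows, 6 were left out because the symbol carries the pseudogene ending -ps, and 5 because their mean over the 9 libraries was below 1 FPKM (fragments per kilobase of transcript, scaled to the mapped fragments of the library). That left 87 of the 25759 gene rows. They comprised 7 core and 31 accessory subunit genes of complex I, 8 complex I assembly factors, 10 genes of complex III with cytochrome c, 13 of complex IV, 17 of ATP synthase and Cox6c2. The label fits 84 members, which the annotation lists as protein coding. Cox6c2, Ndufb4c and Ndufs6b are annotated as processed pseudogenes and entered because their symbols lack the -ps ending. Ndufb4c and Ndufs6b are counted among the 31 accessory genes of complex I.

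RNA sequencing was done on 3 libraries in each of 3 groups of sorted CD4+ T cells, all from C57BL/6 mice aged 8 to 12 weeks. Activated KO cells came from the line labelled BMPR1a/CD4cre, in which Cre recombinase driven by Cd4 regulatory sequence is directed from the thymocyte stage at Bmpr1a, a receptor of the bone morphogenetic protein pathway. Activated WT cells were wild type. For both activated groups, whole lymph node and spleen suspensions were cultured for 3 days with the T cell mitogen ConA (2 ug/ml) and with LPS (10 ng/ml), and cells with the surface pattern CD4+CD44+CD62-Foxp3GFP- were then sorted. Naive WT cells had the surface pattern CD4+CD44-CD62+Foxp3GFP- and were sorted with no culture and no stimulus. The sample descriptions give a Foxp3GFP reporter transgene for the mice, so Foxp3-expressing regulatory T cells were gated out of all 3 groups. The labels do not say whether replicates are separate mice or cultures, and p-values therefore reflect only the spread among these libraries, which may be technical.

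Oxidative phosphorylation couples the oxidation of NADH and succinate to the synthesis of ATP at the inner mitochondrial membrane. Complexes I and II pass electrons to coenzyme Q, complex III passes them on to cytochrome c, and complex IV passes them to oxygen. Complexes I, III and IV pump protons, and ATP synthase uses the returning protons to make ATP. Most subunits are encoded in the nucleus and imported, while a core set is encoded in mitochondrial DNA, so each complex except complex II is built from products of both genomes. Naive T cells rely mainly on respiration, and activated T cells enlarge their mitochondrial content while they also take up glycolysis.

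Values were compared as log2(FPKM + 1) with limma in a single fit of the 9 libraries. The tests were two-sided and covered the 15126 genes averaging 0.5 FPKM or more. P-values were adjusted over all of these by the Benjamini-Hochberg method, and calls required an adjusted p below 0.05. Log2 fold changes and log2 differences in the text are on that scale, which understates changes at low levels, and all adjusted p are limma's. Levels of the members ran from 1.49 FPKM (Ndufs6b) to 418 FPKM (Uqcrh) as means of 9 libraries, with a median of 77.6 FPKM, and 36 members reached 100 FPKM. Closest to the limit of 1 FPKM were Ndufs6b and Atp5s (1.60 FPKM) inside it and Ndufa11b (0.278 FPKM) outside it. Cox4i2, Cox6a2, Cox8b and Ndufa4l2 were lower still, and Cox8b was listed at 0 in every library. Cox7a1 and Cox6b2 averaged below 1 FPKM in naive cells and became members through their levels in the activated groups, so their difference from naive cells is given as a description only. Cox4i1 is not analysed here.

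Facts of the libraries that bear on the members are the following. The table gives no read counts, so the depth behind each value is unknown. Naive WT replicate 3 held the highest value of its group for 83 of the 87 members, and the median coefficient of variation of a member was 6.09% in activated KO, 5.94% in activated WT and 11.6% in naive WT cells. Naive WT replicate 2 carried neutrophil RNA, with S100a8 at 292 FPKM. Defining T cell markers Cd3e, Cd4 and Trac were at or above 209 FPKM in every library. The targeted gene itself read 0.957, 1.93 and 1.20 FPKM in the activated KO libraries, 2.16, 2.92 and 1.40 FPKM in the activated WT libraries and 0.460, 0.311 and 0.336 FPKM in the naive WT libraries. Activated KO and activated WT libraries overlapped for Bmpr1a (log2 difference -0.41 with SE 0.21, adjusted p = 0.261; two-sided exact permutation test, p = 0.2, with a minimum of 0.1 in this design). A gene-level value also counts exons outside the deleted stretch, so it checks the genotype label only in part.

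Sequences upstream of the genes are shown first. Whether they bear on how the members changed was not tested. RefSeq promoters on GRCm38.p6 matched 70 of the 87 members, and the 250 bases before the transcript start were searched on both strands for 4 motifs known from promoters of respiratory genes. The NRF1 motif, which reads GCGC, A, any base and GCGC, was found at 12 of the 70 members (17.1%), against 9.76% of the 9184 tested genes with a promoter. CCGGAAG, the core bound by GABP and other ETS factors, was at 13 members (18.6%) and 17.0% of tested genes. The YY1 motif AANATGGCG was at 3 members (4.29%) and 2.80% of tested genes. CCAAT, the motif of NF-Y, was at 31 members (44.3%) and 41.3% of tested genes. A match describes letters in this window and is not evidence of binding.

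Shown here are the 3 genes for ATP synthase subunit c, which encode the same mature protein and differed in their response to activation, then Atp5b and Cox6a1 from the knockout comparison, and Cox8a and Ndufaf4, the rise and the fall with the smallest adjusted p on activation. Each line gives the 250 bases 5′ to 3′ up to the RefSeq transcript start, with motif matches on either strand in capitals.
Atp5g1: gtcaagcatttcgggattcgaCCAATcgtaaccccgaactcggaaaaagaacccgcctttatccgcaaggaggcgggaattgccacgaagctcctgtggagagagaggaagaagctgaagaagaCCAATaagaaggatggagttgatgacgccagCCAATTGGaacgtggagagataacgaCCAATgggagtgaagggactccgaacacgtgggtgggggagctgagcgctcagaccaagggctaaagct
Atp5g2: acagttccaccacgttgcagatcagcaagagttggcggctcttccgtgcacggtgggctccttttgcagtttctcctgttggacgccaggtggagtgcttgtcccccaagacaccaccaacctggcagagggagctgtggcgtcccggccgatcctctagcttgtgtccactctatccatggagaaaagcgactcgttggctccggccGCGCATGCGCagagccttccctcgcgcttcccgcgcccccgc
Atp5g3: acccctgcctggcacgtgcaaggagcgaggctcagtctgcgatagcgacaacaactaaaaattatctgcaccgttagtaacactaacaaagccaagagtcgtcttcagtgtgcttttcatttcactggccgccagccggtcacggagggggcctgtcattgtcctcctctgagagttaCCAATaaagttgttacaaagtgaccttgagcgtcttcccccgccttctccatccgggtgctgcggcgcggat
Atp5b: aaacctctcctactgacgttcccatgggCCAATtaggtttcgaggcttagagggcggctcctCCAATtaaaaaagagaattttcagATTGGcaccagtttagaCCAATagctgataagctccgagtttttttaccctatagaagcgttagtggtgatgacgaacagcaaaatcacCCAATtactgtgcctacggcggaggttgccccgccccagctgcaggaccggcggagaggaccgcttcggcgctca
Cox6a1: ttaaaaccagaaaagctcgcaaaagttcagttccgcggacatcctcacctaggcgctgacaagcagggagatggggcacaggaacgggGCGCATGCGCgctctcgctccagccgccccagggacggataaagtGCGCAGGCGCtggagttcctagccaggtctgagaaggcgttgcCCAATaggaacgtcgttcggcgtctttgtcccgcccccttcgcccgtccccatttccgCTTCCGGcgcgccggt
Cox8a: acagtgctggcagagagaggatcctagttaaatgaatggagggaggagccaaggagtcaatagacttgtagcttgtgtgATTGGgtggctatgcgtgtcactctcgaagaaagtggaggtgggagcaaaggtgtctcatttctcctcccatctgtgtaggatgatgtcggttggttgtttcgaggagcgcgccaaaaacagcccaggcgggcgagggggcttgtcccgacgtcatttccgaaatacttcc
Ndufaf4: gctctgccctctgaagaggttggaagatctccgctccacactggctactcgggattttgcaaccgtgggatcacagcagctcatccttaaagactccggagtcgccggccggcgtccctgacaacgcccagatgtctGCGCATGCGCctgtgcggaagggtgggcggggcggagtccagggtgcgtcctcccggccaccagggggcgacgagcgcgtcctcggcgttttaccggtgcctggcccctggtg
The Atp5g1 window (chr11:96075632-96075881 on the minus strand) held 5 CCAAT matches, of which a pair overlaps head to head in ccaattgg, 88 to 95 bases before the start, and it held none of the other motifs. The Atp5g2 window (chr15:102671048-102671297 on the minus strand) held an NRF1 match 33 to 42 bases before the start and no CCAAT, and the Atp5g3 window (chr2:73911327-73911576 on the minus strand) held a single CCAAT. Atp5b (chr10:128083057-128083306 on the plus strand) also had 5 CCAAT matches, in both orientations. Cox6a1 (chr5:115348959-115349208 on the minus strand) held 2 NRF1 matches, a CCAAT and, 10 to 16 bases before the start, CCGGAAG on the reverse strand. Cox8a (chr19:7217617-7217866 on the minus strand) held a single CCAAT, and Ndufaf4 (chr4:24897833-24898082 on the plus strand) a single NRF1 match. RefSeq and the GENCODE annotation place some starts differently, and the windows of Atp5g1, Atp5b and Cox6a1 reach into the GENCODE gene. The Atp5g2 window lies wholly inside its GENCODE gene (chr15:102662864-102672352 on the minus strand). It therefore precedes a start inside that gene, and its motif content does not describe the stretch before the GENCODE start.

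Activated WT cells were compared with naive WT cells to see which transcripts differed after stimulation. Most subunit genes were higher in activated cells, by a modest amount, and 3 assembly factors of complex I were called lower. Of the 87 members, 51 were called higher and 4 lower, against 26.2% of all tested genes called higher and 25.8% called lower. At 52 members every activated WT library lay above every naive WT library, and at 5 every one lay below, where 29.6% and 29.8% of all tested genes were separated in those directions. The members' median log2 fold change was 0.34, against -0.01 over all tested genes. Without Cox6b2 and Cox7a1, which entered through their activated levels, 49 of 85 members were called higher and 4 lower. Of the 74 of these that are neither assembly factors nor pseudogenes, 48 were called higher and 1 lower. Among the 49 called higher the ratio of group means had a median of 1.42, and it reached 2 for Cox8a and Ndufv3. Activation, culture and the CD44 and CD62 gates differ together between these groups and cannot be told apart. In bulk libraries fewer cells of a type and less RNA per cell cannot be told apart either.

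**Figure D1:**
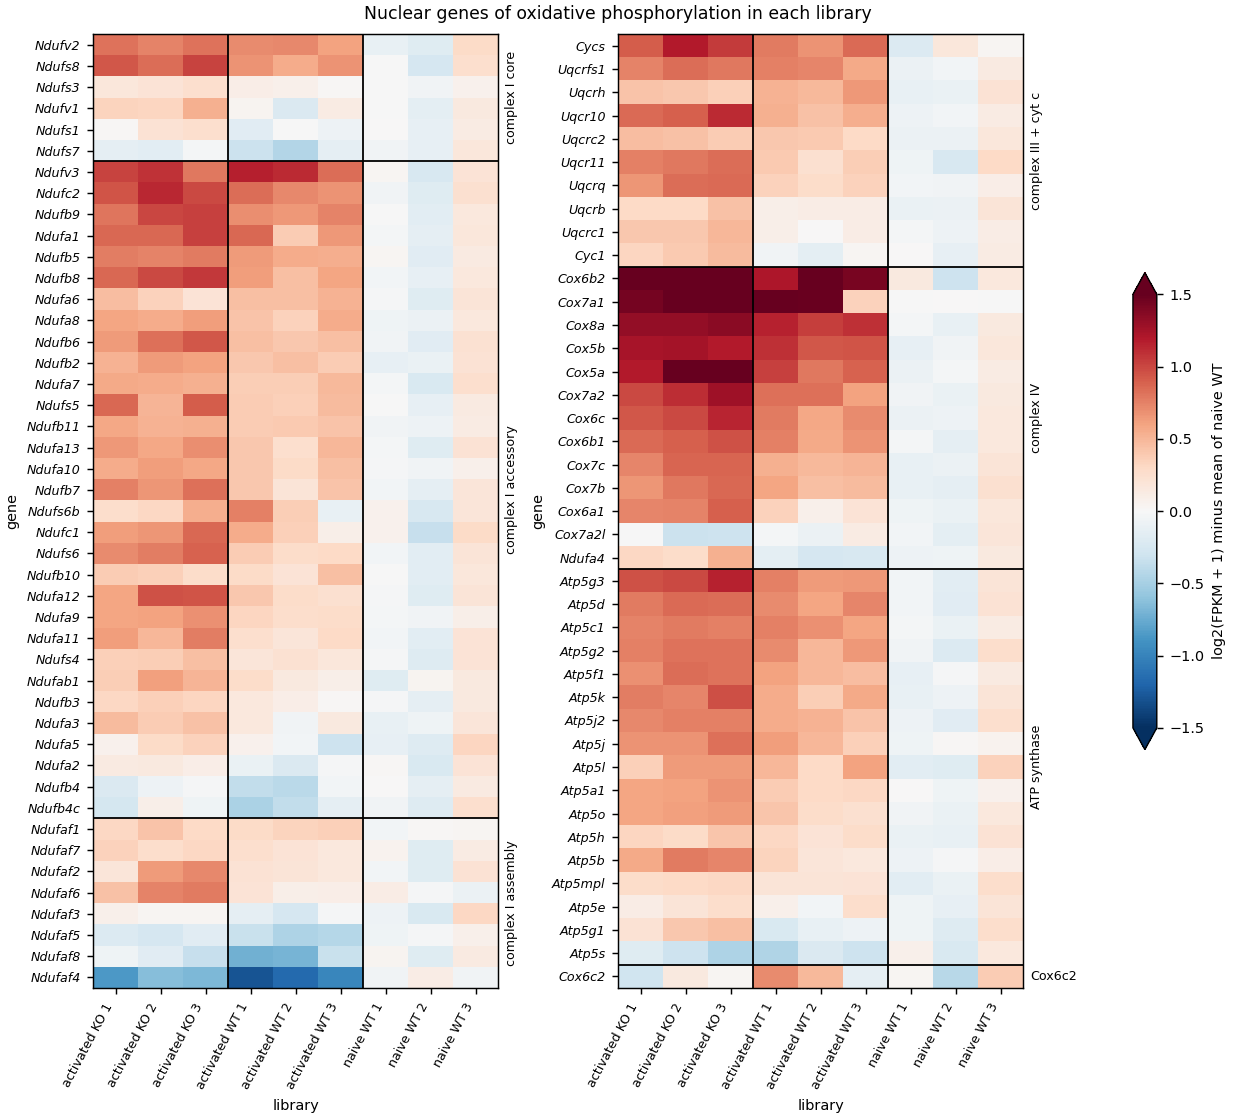
Colour shows log2(FPKM + 1) of the members reported here in each of the 9 libraries (columns) minus the mean of the 3 naive WT libraries, with members grouped by complex and ordered within each by the difference between activated WT and naive WT. Most rows are red in the 6 activated libraries, complex IV rows are the darkest, and Ndufaf4 at the foot of the complex I assembly factors is blue in all 6.

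RNA of several other cell types moved with the same comparison. Both CD8 markers on the list, Cd8a and Cd8b1, were separated, and their sum was 147 to 230.4 FPKM in activated WT and 9.48 to 41.4 FPKM in naive WT libraries. The summed NK cell markers were 164 to 193 FPKM in activated WT and 28.3 to 65.1 FPKM in naive WT libraries, carried by Klrk1 and Klrd1, while Ncr1, which defines NK cells, was at or near 0 in activated WT. Neutrophil markers summed to at most 0.766 FPKM in activated WT and to 52.8 to 644 FPKM in naive WT libraries. Erythroid markers summed to 0.816 to 1.02 FPKM in activated WT and to 63.6 to 84.2 FPKM in naive WT libraries. Macrophage and monocyte markers summed to 1.85 to 6.00 FPKM in activated WT and to 19.5 to 183 FPKM in naive WT libraries. B cell and dendritic cell sums overlapped between the groups. The part of these cells in the members' changes was not tested. Without naive WT replicate 2, which holds most of the neutrophil RNA, 45 members were called higher and 5 lower. Without naive WT replicate 3, where the members read highest, 60 were called higher and 3 lower. These counts take in Cox6b2 and Cox7a1, which entered through their activated levels.

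**Figure D2:**
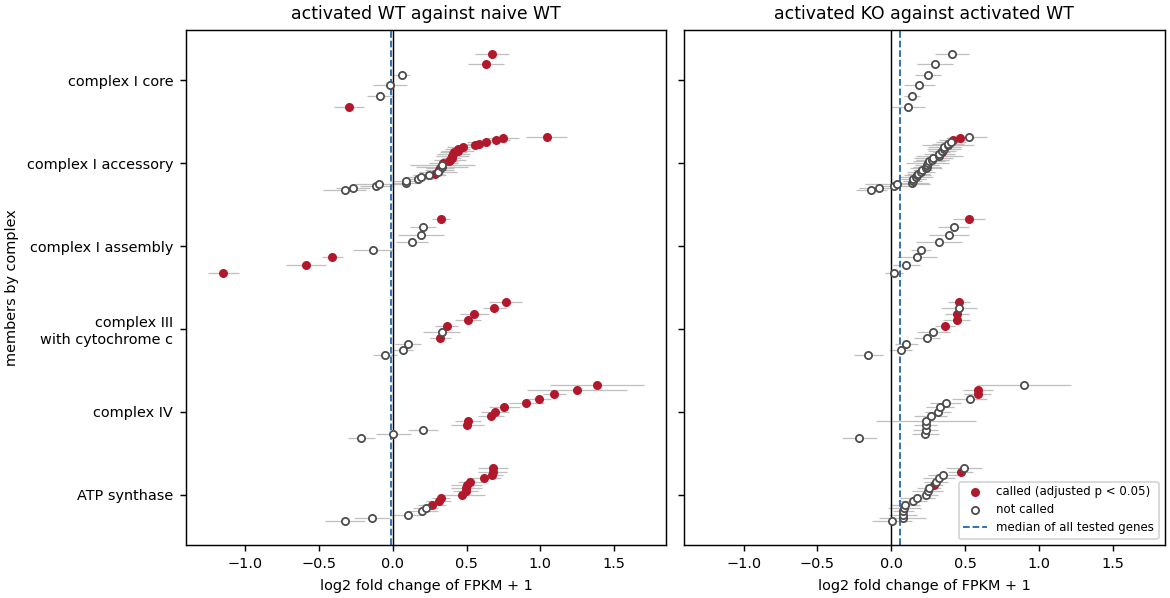
Each point is a member reported here, placed at its limma log2 fold change of FPKM + 1 (horizontal axis, bars show the standard error) and ordered within its complex, for activated WT against naive WT (left) and activated KO against activated WT (right). Filled points are called at an adjusted p under 0.05, the dashed line is the median of all tested genes, and Cox6c2, which belongs to no list, is not drawn.

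Complex I takes electrons from NADH. Among its 7 core subunit genes, 3 were called higher and 1 lower (42.9% and 14.3%). Of all tested genes, 26.2% were called higher and 25.8% lower. Ndufv2, an iron-sulfur subunit of the NADH-oxidising module, averaged 83.3 ± 3.84 FPKM in activated WT cells and 52.3 ± 9.56 FPKM in naive WT cells (SD, n = 3 each; log2 difference 0.68 with SE 0.12, adjusted p = 0.00187). Ndufs8, which carries iron-sulfur clusters next to the quinone site, averaged 38.3 ± 1.80 FPKM in activated WT cells and 24.6 ± 4.45 FPKM in naive WT cells (log2 difference 0.63 with SE 0.12, adjusted p = 0.00319). Ndufs7, the core subunit that holds the last iron-sulfur cluster before coenzyme Q, went the other way and read 48.9, 45.1 and 56.1 FPKM in the activated WT libraries, against 59.5, 56.3 and 69.4 FPKM in the naive WT libraries (log2 difference -0.30 with SE 0.10, adjusted p = 0.0418). The groups did not overlap for Ndufs7, but its lowest naive and highest activated libraries were close, and the call was lost under 9 of 18 alternative settings (adjusted p from 0.00396 to 0.133 over them). Ndufv1, Ndufs1 and Ndufs3 were not called, with log2 fold changes of -0.02, -0.09 and 0.06.

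The 31 accessory genes of complex I take in the processed pseudogenes Ndufb4c and Ndufs6b. Of these 31, 19 were called higher (61.3%) and none lower, against 26.2% and 25.8% of all tested genes. Ndufv3 (ENSMUSG00000024038, chr17:31520115-31531331 on the plus strand), a small subunit of the NADH-oxidising module, read 182, 177 and 145 FPKM in the activated WT libraries, against 82.4, 68.4 and 93.3 FPKM in the naive WT libraries (log2 difference 1.04 with SE 0.14, adjusted p = 0.000579). It was the accessory gene with the largest difference, and all activated WT libraries lay above all naive WT libraries. Ndufc2 and Ndufb9 of the membrane arm followed, with log2 fold changes of 0.75 and 0.70. The other accessory genes called higher, Ndufa1, Ndufb5, Ndufb8, Ndufa6, Ndufa8, Ndufb6, Ndufb2, Ndufa7, Ndufs5, Ndufb11, Ndufa13, Ndufa10, Ndufb7, Ndufs6, Ndufb10 and Ndufa9, lay between 0.29 and 0.63. The accessory gene with the highest level, Ndufa3, averaged 182 ± 14.8 FPKM in activated WT cells and 172 ± 19.2 FPKM in naive WT cells and was not called (log2 difference 0.09 with SE 0.09, adjusted p = 0.469). Nor were Ndufs6b, Ndufc1, Ndufa12, Ndufa11, Ndufs4, Ndufab1, Ndufb3, Ndufa5, Ndufa2, Ndufb4 and Ndufb4c, between -0.33 and 0.34.

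The 8 complex I assembly factors, which help to build the enzyme and are absent from the finished complex, had lower levels than the subunits, and their values ran in both directions. Their medians were 8.55 FPKM in activated KO, 7.16 FPKM in activated WT and 9.12 FPKM in naive WT cells. Those of the accessory genes, with the pseudogenes Ndufb4c and Ndufs6b, were 67.2 FPKM in activated KO, 54.5 FPKM in activated WT and 44.4 FPKM in naive WT cells. Only Ndufaf1 was called higher (0.33), and Ndufaf4, Ndufaf8 and Ndufaf5 were called lower, 37.5% of the 8 against 25.8% of all tested genes. Their median log2 fold change was 0.00, with 4 values above 0 and 4 below. Ndufaf4 (ENSMUSG00000028261, chr4:24898083-24905001 on the plus strand) read 4.59, 5.10 and 5.99 FPKM in the activated WT libraries, against 12.2, 13.9 and 12.2 FPKM in the naive WT libraries (log2 difference -1.15 with SE 0.11, adjusted p = 9.89e-05). Its activated WT mean was 0.409 times the naive WT mean, with no overlap between libraries, and it was the one called member that was lower by more than 2-fold. Ndufaf8 averaged 7.89 ± 1.40 FPKM in activated WT cells and 12.3 ± 1.43 FPKM in naive WT cells (log2 difference -0.59 with SE 0.14, adjusted p = 0.00783) and Ndufaf5 averaged 6.43 ± 0.358 FPKM in activated WT cells and 8.87 ± 0.494 FPKM in naive WT cells (log2 difference -0.41 with SE 0.07, adjusted p = 0.00177). In human cells NDUFAF5 hydroxylates an arginine of NDUFS7 during assembly and NDUFAF8 is its partner. Ndufaf7, Ndufaf2, Ndufaf6 and Ndufaf3 were not called, with log2 fold changes from -0.13 to 0.20.

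Complex III passes electrons from coenzyme Q to cytochrome c. Of its 10 genes, cytochrome c included, 6 were called higher and none lower, against 26.2% and 25.8% of all tested genes. Cycs (ENSMUSG00000063694, chr6:50562563-50566538 on the minus strand), the mobile carrier that also triggers apoptosis once released, read 40.9, 38.0 and 43.1 FPKM in the activated WT libraries, against 20.3, 26.7 and 24.0 FPKM in the naive WT libraries (log2 difference 0.76 with SE 0.11, adjusted p = 0.000939). Uqcrfs1, the Rieske iron-sulfur protein, averaged 85.8 ± 5.98 FPKM in activated WT cells and 52.9 ± 4.49 FPKM in naive WT cells (log2 difference 0.69 with SE 0.08, adjusted p = 0.000273). Uqcrh, the hinge protein and the member with the highest level, averaged 485 ± 28.8 FPKM in activated WT cells and 332 ± 43.9 FPKM in naive WT cells (log2 difference 0.55 with SE 0.10, adjusted p = 0.00226). Uqcr10, Uqcrc2 and Uqcrq were called at log2 fold changes of 0.51, 0.37 and 0.32. Cyc1, the cytochrome c1 subunit that hands electrons to Cycs, averaged 56.4 ± 3.43 FPKM in activated WT cells and 58.8 ± 5.13 FPKM in naive WT cells and was not called (log2 difference -0.06 with SE 0.08, adjusted p = 0.591), and neither were Uqcrc1, Uqcrb and Uqcr11 (0.07, 0.10 and 0.33).

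Complex IV, cytochrome c oxidase, had the largest median among the complexes. Over the 11 members without Cox6b2 and Cox7a1 it was 0.67 on the log2 scale, with 8 called higher and none lower. Over all tested genes these shares were 26.2% and 25.8%. Cox8a (ENSMUSG00000035885, chr19:7215153-7217616 on the minus strand), a small membrane subunit, read 372, 342 and 358 FPKM in the activated WT libraries, against 163, 154 and 185 FPKM in the naive WT libraries (log2 difference 1.09 with SE 0.08, adjusted p = 2.87e-05). The activated WT mean was 2.14 times the naive WT mean, with a gap between the groups far wider than the spread within either. Cox5b and Cox5a, subunits on the matrix side, averaged 202 ± 12.9 FPKM in activated WT cells and 101 ± 11.0 FPKM in naive WT cells for Cox5b (log2 difference 0.99 with SE 0.09, adjusted p = 7.57e-05) and 115 ± 9.58 FPKM in activated WT cells and 61.1 ± 4.67 FPKM in naive WT cells for Cox5a (log2 difference 0.90 with SE 0.12, adjusted p = 0.000547). Cox7a2, Cox6c, Cox6b1, Cox7c and Cox7b were called between 0.51 and 0.75. Cox6a1, Cox7a2l and Ndufa4 were not called. Ndufa4, first described as a complex I subunit and now placed in complex IV, read lower in every activated WT library than in every naive WT library (141, 131 and 132 FPKM in the activated WT libraries, against 148, 149 and 172 FPKM in the naive WT libraries; log2 difference -0.21 with SE 0.09, adjusted p = 0.0825).

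Genes for tissue-specific forms of complex IV subunits were low throughout. Cox6b2, known as the testis form of Cox6b, read 3.45, 4.74 and 10.2 FPKM in the activated KO libraries, 2.12, 2.89 and 2.61 FPKM in the activated WT libraries and 0.499, 0.0876 and 0.508 FPKM in the naive WT libraries (log2 difference 1.39 between activated WT and naive WT cells). Cox7a1, known as the heart and muscle form of Cox7a, read 2.61, 2.75 and 2.81 FPKM in the activated KO libraries, 3.98, 2.74 and 0.700 FPKM in the activated WT libraries and 0.327, 0.344 and 0.330 FPKM in the naive WT libraries (log2 difference 1.25 between activated WT and naive WT cells). Activated WT libraries differed widely among themselves for Cox7a1. Their general forms stood far higher, Cox6b1 at 366 ± 13.2 FPKM in activated KO cells, 312 ± 19.4 FPKM in activated WT cells and 196 ± 20.7 FPKM in naive WT cells and Cox7a2 at 132 ± 13.5 FPKM in activated KO cells, 102 ± 8.80 FPKM in activated WT cells and 60.0 ± 5.69 FPKM in naive WT cells, and Cox7a2l, linked to supercomplexes of the respiratory chain, at 299 ± 38.7 FPKM in activated KO cells, 346 ± 26.5 FPKM in activated WT cells and 346 ± 40.4 FPKM in naive WT cells. Cyct, the testis form of cytochrome c, was listed at 0 in all libraries of both WT groups and at or below 0.218 FPKM in activated KO.

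ATP synthase had 12 of 17 members called higher on activation (70.6%) and none lower, against 26.2% and 25.8% of all tested genes. The largest differences were those of Atp5g3 for subunit c of the membrane ring (0.68), Atp5d for subunit delta (0.68) and Atp5c1 for the rotating gamma shaft (0.67). Atp5c1 averaged 210.1 ± 12.2 FPKM in activated WT cells and 131 ± 10.2 FPKM in naive WT cells (log2 difference 0.67 with SE 0.07, adjusted p = 0.000201), and Atp5d averaged 157 ± 8.12 FPKM in activated WT cells and 98.2 ± 13.8 FPKM in naive WT cells (log2 difference 0.68 with SE 0.10, adjusted p = 0.000836). Atp5a1, which encodes the alpha subunit, rose by 0.33 (adjusted p = 0.00278, limma), while Atp5b, which encodes the catalytic beta subunit and had the highest level of the complex, missed the threshold at 0.22 (adjusted p = 0.0615, limma) although its libraries did not overlap. Of the stalk and membrane genes, Atp5g2, Atp5f1, Atp5k, Atp5j2, Atp5j, Atp5l, Atp5o and Atp5h were called, between 0.26 and 0.62. Atp5mpl, Atp5e, Atp5g1 and Atp5s were not called, at 0.20, 0.10, -0.14 and -0.33.

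**Figure D3:**
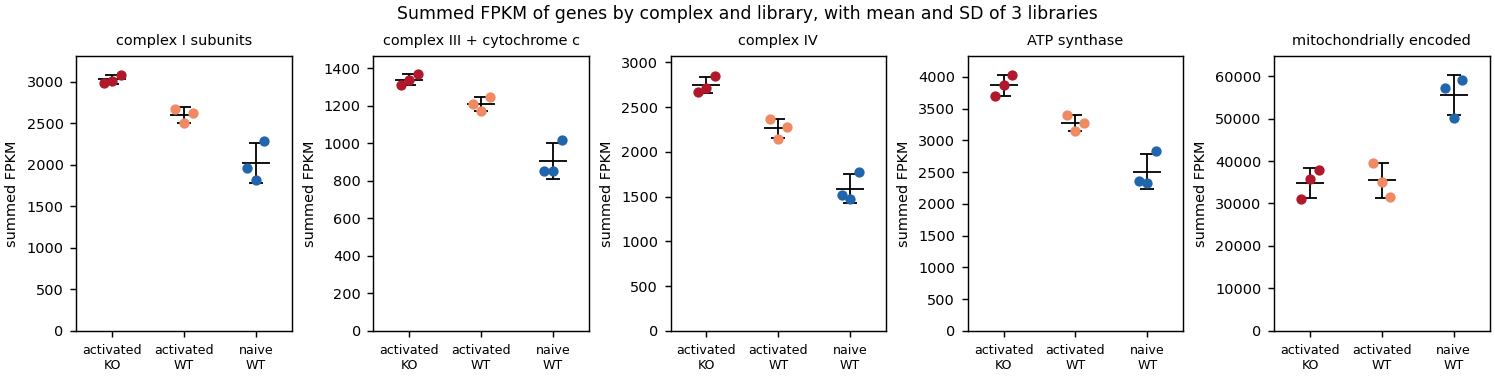
Points are the summed FPKM (vertical axis, from 0) of the genes of each complex in each library, complex I without its assembly factors, beside the mitochondrially encoded genes at the right, with horizontal marks and bars for the mean and SD of 3 libraries. Activated KO libraries lie above activated WT, and these above naive WT, in the 4 nuclear panels, while the mitochondrially encoded sum is lower in both activated groups.

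The summed FPKM of all members was 10736, 11029 and 11416 in activated KO, 9728, 9031 and 9484 in activated WT and 6774, 6545 and 7993 in naive WT libraries. No library of one group reached into another. Other genes of the system did not all share this direction. Of the 13 mitochondrially encoded protein genes, 12 were called lower in activated WT than in naive WT cells and none higher, with a median of -0.67. These 12 were 92.3% of the list, against 25.8% of all tested genes called lower. The ratio of the members' sum to the mitochondrially encoded sum was 0.346, 0.309 and 0.302 in activated KO, 0.245, 0.257 and 0.301 in activated WT and 0.118, 0.131 and 0.135 in naive WT libraries. Activated and naive libraries were far apart, while the lowest activated KO value lay just above the highest of activated WT.

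Complex II, which oxidises succinate and does not fall under the naming rule, had 4 of 8 genes called higher and 2 lower on activation. Over all tested genes the shares were 26.2% called higher and 25.8% called lower. Sdhd, a membrane anchor, averaged 81.6 ± 4.67 FPKM in activated WT cells and 41.2 ± 4.26 FPKM in naive WT cells (log2 difference 0.97 with SE 0.09, adjusted p = 9.25e-05), Sdhb rose by 0.43, Sdhc was called at 0.33 but lost under 12 of 18 alternatives (adjusted p up to 0.136, limma), and the catalytic Sdha was not called (-0.14). Among 38 further assembly factors 7 were called higher and 8 lower (18.4% and 21.1%), both shares below those of all tested genes. They ran from Cmc2 at 1.09 and the copper chaperone Cox17 at 0.73 to Ttc19, a complex III factor, at -0.78. Coenzyme Q synthesis had 1 of 13 genes called higher (7.69%), the hydroxylase Coq7 (0.60, lost under 10 of 18 alternatives with limma adjusted p up to 0.102). In the same list 4 were called lower (30.8%, near the share of all tested genes), among them Coq2 (-0.62) and Coq5 (-0.60). Of 23 tested regulators of mitochondrial gene expression 2 were called higher and 11 lower (8.70% and 47.8%). Pprc1, a coactivator of nuclear respiratory genes, averaged 8.97 ± 2.04 FPKM in activated WT cells and 27.8 ± 1.72 FPKM in naive WT cells (log2 difference -1.55 with SE 0.19, adjusted p = 0.000404). Polg and Polrmt, the polymerases that copy and transcribe mitochondrial DNA, fell by 1.13 and 1.08 on the log2 scale. Mitochondrial ribosomal protein genes (symbols starting Mrpl or Mrps) had 34 of 81 called higher and 10 lower (42.0% and 12.3%), with a median of 0.18.

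Activated KO cells were compared with activated WT cells under the same stimulus. The labels do not say whether mice or cultures differed otherwise, so genotype and such differences cannot be told apart. Few members passed the test. Of the 87 members, 12 were called higher and none lower, against 3.30% of all tested genes called higher and 0.840% called lower. At 64 members all activated KO libraries lay above all activated WT libraries, where 22.8% of all tested genes did so, and Uqcrh was the only member separated in the other direction, where 8.36% of all tested genes were. The members' median log2 fold change was 0.25, against 0.06 over all tested genes. Values were positive for 82 of 87 members and for 9152 of the 15126 tested genes. No called member differed by 2-fold, with ratios of group means from 1.23 to 1.54 and limma adjusted p from 0.0253 to 0.0488. At an unadjusted p under 0.05 limma gave 52 members, 52 of them higher and 0 lower. The same limit was met by 3786 of the 15126 tested genes, in either direction.

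These 12 calls were not stable. No member was called when the 6 activated libraries were fitted alone, or without activated WT replicate 2, activated WT replicate 3, activated KO replicate 2 or activated KO replicate 3. There was 1 call without naive WT replicate 1, 3 without activated WT replicate 1 and 59 with array quality weights, while the median stayed between 0.17 and 0.30 under every setting tried. Size factors by median of ratios did not overlap between the groups, at 1.017 to 1.035 in activated KO and 0.971 to 0.982 in activated WT libraries, and after scaling by them 4 members were called with a median of 0.17. That scaling also changed the balance over all tested genes, to 1.10% called higher and 0.926% called lower. Beside the members, the mitochondrial ribosomal protein genes had a median of 0.25 with 5 of 81 called higher and none lower. Summed CD8 T cell markers were 219.6 to 279 FPKM in activated KO and 147 to 230.4 FPKM in activated WT libraries, ranges that overlap, and their part in the result was not tested.

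Complex III held 4 of the 12 calls. Cyc1 (ENSMUSG00000022551, chr15:76343523-76346260 on the plus strand) read 73.3, 77.2 and 81.5 FPKM in the activated KO libraries, against 56.3, 53.1 and 59.9 FPKM in the activated WT libraries (log2 difference 0.45 with SE 0.08, adjusted p = 0.0345). The lowest activated KO library lay clearly above the highest activated WT library, and naive WT libraries (58.9, 53.6 and 63.8 FPKM) lay beside activated WT. Uqcrq and Uqcr10, small subunits, averaged 101 ± 7.61 FPKM in activated KO cells and 73.2 ± 2.09 FPKM in activated WT cells for Uqcrq (log2 difference 0.46 with SE 0.07, adjusted p = 0.0271) and 185 ± 19.1 FPKM in activated KO cells and 135 ± 5.27 FPKM in activated WT cells for Uqcr10 (log2 difference 0.44 with SE 0.09, adjusted p = 0.0411). Calls of Cyc1, Uqcrq and Uqcr10 were lost under 8, 8 and 12 of 18 alternatives. Uqcrc1, a core protein on the matrix side, rose by 0.37 (limma adjusted p = 0.0348). Uqcrh was the exception and read 445, 437 and 423 FPKM in the activated KO libraries, against 475, 463 and 518 FPKM in the activated WT libraries, lower in each knockout library and not called (log2 difference -0.16 with SE 0.10, adjusted p = 0.374).

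In complex IV, Cox6a1 and Ndufa4 were called. Cox6a1 (ENSMUSG00000041697, chr5:115345642-115348981 on the minus strand), the general form of subunit 6a, read 301, 303 and 335 FPKM in the activated KO libraries, against 229, 189 and 207 FPKM in the activated WT libraries (log2 difference 0.59 with SE 0.10, adjusted p = 0.0283). Ndufa4 (ENSMUSG00000029632, chr6:11900292-11907497 on the minus strand) read 194, 189.8 and 226 FPKM in the activated KO libraries, against 141, 131 and 132 FPKM in the activated WT libraries (log2 difference 0.59 with SE 0.09, adjusted p = 0.0253). Both were separated by more than the spread within either group. Of the named member calls Ndufa4 was lost under the fewest alternatives, 6 of 18. Cox6a1 was lost under 7, and Ndufaf6 of complex I under the most, 14. Cox5a averaged 168 ± 24.6 FPKM in activated KO cells and 115 ± 9.58 FPKM in activated WT cells and narrowly missed the threshold (log2 difference 0.53 with SE 0.12, adjusted p = 0.051). Cox7a2l read 343, 275 and 278 FPKM in the activated KO libraries, against 337, 325 and 376 FPKM in the activated WT libraries, with overlapping libraries (log2 difference -0.22 with SE 0.12, adjusted p = 0.308; 95% interval -0.49 to 0.06).

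**Figure D4:**
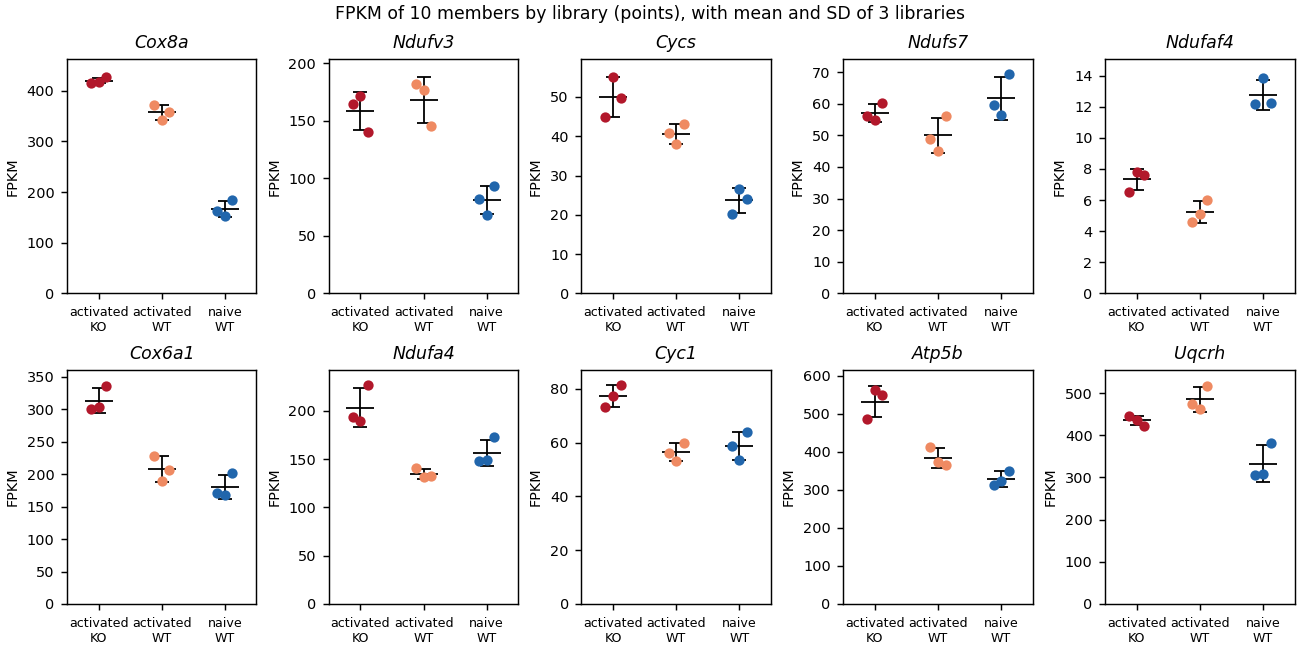
Points show the FPKM (vertical axes, from 0) of 10 members in each library, with the mean and SD of 3 libraries per group. In the top row Cox8a, Ndufv3 and Cycs are higher and Ndufs7 and Ndufaf4 lower in activated than in naive WT cells; in the bottom row Cox6a1, Ndufa4, Cyc1 and Atp5b are higher in activated KO than in activated WT cells and Uqcrh is lower in each library.

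In ATP synthase 2 of 17 members were called (11.8%), against 3.30% of all tested genes called higher. Both calls were unstable, with Atp5b lost under 8 and Atp5a1 under 9 of 18 alternatives. Atp5b (ENSMUSG00000025393, chr10:128083273-128090391 on the plus strand) read 485, 562 and 548 FPKM in the activated KO libraries, against 412, 372 and 365 FPKM in the activated WT libraries (log2 difference 0.47 with SE 0.09, adjusted p = 0.0348), and Atp5a1 averaged 342 ± 10.9 FPKM in activated KO cells and 279 ± 9.58 FPKM in activated WT cells (log2 difference 0.29 with SE 0.06, adjusted p = 0.0438). Both groups were tight for Atp5a1 and did not overlap, but its exons overlap those of Haus1 on the other strand, whose reads cannot be told apart without a strand setting. Other members of the complex were not called, from 0.00 for Atp5s to 0.50 for Atp5g1. Of these, Atp5g1, Atp5g3 (0.35), Atp5k (0.32) and Atp5o (0.31) changed more than Atp5a1, and the rest less. The calls therefore do not single out a part of the enzyme.

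Complex I held the other 4 calls, none of them among the core subunits. Ndufa9, an accessory subunit at the junction of the 2 arms, averaged 64.0 ± 2.34 FPKM in activated KO cells and 50.2 ± 1.06 FPKM in activated WT cells (log2 difference 0.34 with SE 0.06, adjusted p = 0.0283). Ndufs6, a zinc-binding subunit, averaged 77.0 ± 4.99 FPKM in activated KO cells and 55.4 ± 2.14 FPKM in activated WT cells (log2 difference 0.47 with SE 0.10, adjusted p = 0.0424), and Ndufb8 of the membrane arm rose by 0.42 (adjusted p = 0.0488, limma). The assembly factor Ndufaf6 had the highest ratio of group means among the called members, 1.54, at a low level (7.42 ± 1.06 FPKM in activated KO cells and 4.83 ± 0.264 FPKM in activated WT cells; log2 difference 0.52 with SE 0.11, adjusted p = 0.0424). Of 18 alternatives the call was lost under 10 for Ndufa9, 11 for Ndufs6, 13 for Ndufb8 and 14 for Ndufaf6. All 7 core subunit genes had positive values, from 0.11 for Ndufv2 to 0.41 for Ndufv1, and none passed. Ndufaf4, the factor with the largest fall on activation, averaged 7.32 ± 0.677 FPKM in activated KO cells and 5.22 ± 0.708 FPKM in activated WT cells and did not pass (log2 difference 0.42 with SE 0.11, adjusted p = 0.0661).

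Outside the naming rule, the genotype comparison called Cox18, which inserts a mitochondrially encoded subunit of complex IV into the membrane, and Sdhaf1, an iron-sulfur assembly factor of complex II. They were 1 of 38 further assembly factors (2.63%) and 1 of 8 complex II genes, against 3.30% of all tested genes called higher. Cox18 averaged 15.7 ± 0.729 FPKM in activated KO cells and 7.78 ± 0.877 FPKM in activated WT cells (log2 difference 0.93 with SE 0.13, adjusted p = 0.0206) and lost the call under 3 of 18 alternatives. Sdhaf1 averaged 7.36 ± 0.580 FPKM in activated KO cells and 5.22 ± 0.390 FPKM in activated WT cells (log2 difference 0.43 with SE 0.08, adjusted p = 0.0393) and lost it under 12 of 18. No mitochondrially encoded gene (of 13), gene of coenzyme Q synthesis (of 13) or regulator (of 23) was called. Beside a share of 3.30%, lists this short say little. The median of the 13 mitochondrially encoded genes was 0.02, with limma adjusted p of at least 0.178.

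Subunit c of ATP synthase, the protein of the membrane ring, is encoded by Atp5g1, Atp5g2 and Atp5g3, whose import sequences differ while the mature protein is the same. Atp5g3 read 375, 386 and 430.2 FPKM in the activated KO libraries, 326, 303 and 303 FPKM in the activated WT libraries and 188, 174 and 222 FPKM in the naive WT libraries. Atp5g2 read 185, 194 and 193 FPKM in the activated KO libraries, 179.9, 155 and 172 FPKM in the activated WT libraries and 106, 94.5 and 131 FPKM in the naive WT libraries. Both stood higher in every activated than in every naive library. Atp5g1 read 64.3, 73.1 and 75.6 FPKM in the activated KO libraries, 47.0, 50.8 and 52.2 FPKM in the activated WT libraries and 52.6, 48.1 and 66.3 FPKM in the naive WT libraries. Its activated WT and naive WT libraries overlapped (log2 difference -0.14 with SE 0.12, adjusted p = 0.364), and its activated KO libraries lay above all activated WT libraries, although activated KO replicate 1 was below naive WT replicate 3. As a share of the summed FPKM of the 3 genes, Atp5g1 made up 10.3, 11.2 and 10.8% in activated KO, 8.50, 10.0 and 9.90% in activated WT and 15.2, 15.2 and 15.8% in naive WT libraries. The share was lower in every activated library than in every naive one. The knockout difference of Atp5g1 was the largest among ATP synthase genes and missed the threshold (log2 difference 0.50 with SE 0.12, adjusted p = 0.0617), as did those of Atp5g2 (0.18) and Atp5g3 (0.35). In the promoter windows shown above, Atp5g1 had several CCAAT matches, Atp5g3 a single one and Atp5g2 none, the last in a window that lies inside its GENCODE gene. A link between these matches and the levels was not tested.

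**Figure D5:**
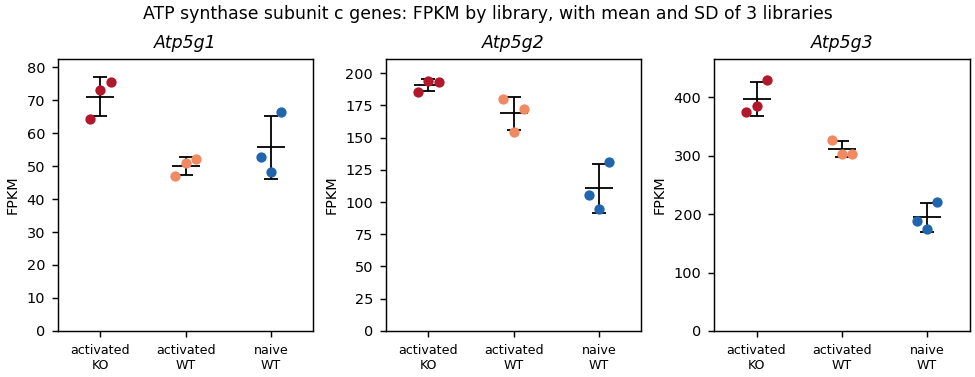
FPKM (vertical axes, from 0) of the 3 genes for subunit c of ATP synthase in each library, with the mean and SD of 3 libraries per group. Atp5g2 and Atp5g3 are higher in both activated groups than in naive WT, whereas Atp5g1 in activated WT overlaps naive WT.

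Sequence shared with other genes limits these values. Of the 84 protein-coding members, 30 had another gene with at least 100 bases at 95% identity or more to their coding sequence. Not all of these are separate copies, since some have exons that overlap the member. Examples are Mrpl47 for Ndufb5, Gm26631 for Cox5a, Ino80dos for Ndufs1 and Gm20538 for Ndufb8. How shared reads were assigned is not given in the sources used here. At 13 members a copy in the table read above 10% of the member's own level. The processed pseudogene Gm10039 read 46.0% of the level of Atp5g1 and differed like it, by -0.13 on activation and 0.49 in the knockout, and Gm10231 read 84.2% of the level of Atp5g2. Cox7c with Gm12338, Cycs with Gm10053 and Ndufb4 with Ndufb4c were further such pairs, at 66.7%, 65.2% and 87.6%. Uqcr10 shares sequence with 4930481A15Rik, a gene annotated as antisense whose exons do not overlap those of Uqcr10. Over all tested genes 26.2% were called higher and 25.8% lower on activation, and 3.30% higher in the knockout. Among the 54 coding members with no such shared sequence, 31 were called higher (57.4%) and 4 lower on activation. Of the same 54, 10 were called higher in the knockout (18.5%). Exons of 26 members overlap a gene on the other strand, among them Atp5a1, Ndufa9 and Ndufs6. The 61 others held 34 members called higher (55.7%) and 4 lower on activation, and 9 called higher in the knockout (14.8%). Cox6b2 and Cox7a1, which entered through their activated levels, are in both of these sets.

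The comparison of activated KO with naive WT cells is secondary, since genotype and activation differ together in it and it shares libraries with both comparisons above. In it 72 of the 87 members were called higher and 2 lower, against 31.8% and 25.1% of all tested genes, with a median log2 fold change of 0.63. Without Cox6b2 and Cox7a1 these were 70 of 85 higher and 2 lower, with a median of 0.62. Libraries were separated upward at 71 members and downward at 2, against 35.2% and 28.7% of all tested genes. Complex III had all 10 members called higher, complex IV 10 of the 11 other than Cox6b2 and Cox7a1, and ATP synthase 15 of 17. Accessory genes of complex I had 26 of 31, with the pseudogenes Ndufb4c and Ndufs6b among the 31. The 2 called lower were the complex I assembly factors Ndufaf4 and Ndufaf5, at -0.73 and -0.21.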

How the data were processed

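Per the submitters' processing notes, TopHat2, Cufflinks and Cuffdiff were used with genome build GRCm38. The sources used here do not give versions, strandedness or the handling of multi-mapping reads. The authors deposited 1 table of FPKM values with 9 library columns, unscaled here; no column was left out. Symbols came from a gene name table (24876 of 25759 identifiers matched), positions and gene types from GENCODE on GRCm38, and promoters from RefSeq on GRCm38.p6. The members and lists were chosen with earlier results of these data known.

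Groups follow the sample titles. Testing used limma 3.58.1 in R 4.3.3 with an intensity trend, group means only and a pseudocount of 1; the pipeline was tested on simulated data. Values are mean ± SD over 3 libraries. Genes sharing sequence with a member, overlapping genes included, were found with blastn 2.17.0. Depth is unknown, so no counting intervals are given. Genes were named by rule: per complex, up to 3 called members in each direction with the largest fold change and separated libraries, the member with the highest level, and all isoform families; up to 3 called genes came from each list outside. Other members are listed with their values for completeness. Some values under this rule are not reported here. The 18 alternatives were another pseudocount, other filters, 3 scalings, fewer libraries, array weights, a replicate block and leaving out each library.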

Additional observations from a re-analysis of the deposited data

How the results depend on the processing

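On activation the members called higher numbered 43 to 61 over the 18 alternatives and those called lower 3 to 8, against 51 and 4; the 8 came with array quality weights. Of the 23 calls on activation under the naming rule 21 held under every alternative, and no named call changed sign. These counts and the ranges above take in Cox6b2 and Cox7a1, which became members through their activated levels. Cox6b2 held under every alternative, and Cox7a1 was lost without activated WT replicate 2. Since their activated levels admitted both genes, this is a description only and no support for a rise. In the knockout comparison none of the 11 calls under that rule held under every alternative. Members called higher there numbered 4 after median-of-ratios scaling, 8 after quantile normalization, 17 after equal protein-coding sums, 0 with the 6 libraries compared, 59 with array quality weights and 0 with a replicate block, against 12; leaving out 1 library gave 0 to 17. For activated KO against naive WT, members called lower numbered 4 with quantile normalization, 5 with array quality weights, 1 with the 6 libraries compared and 1 with a replicate block, against 2, and 1 to 2 without single libraries. The Bmpr1a difference between activated KO and activated WT was -0.62 with array quality weights (limma adjusted p = 0.0385) and -0.60 to -0.25 without single libraries. The cause of these changes was not tested. With the replicate block the activation counts were 53 higher and 5 lower. Same-numbered libraries correlated at 0.0027 to 0.054 in their deviations from group means, and other-numbered libraries of different groups at -0.068 to 0.038. These ranges overlap and do not settle whether the numbers pair libraries. The main fit took no pairing. Over all tested genes, 3.30% were called higher in the knockout as deposited, 0.456% with the 6 libraries compared, 0.298% with the block and 18.6% with array weights. Depth is unknown, so counting error at low levels could not be separated from other spread.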

Other observations

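4930481A15Rik is annotated as antisense and shares sequence with Uqcr10, but its exons do not overlap those of Uqcr10. It averaged 1.89 ± 0.758 FPKM in activated KO, 7.75 ± 2.01 FPKM in activated WT and 11.9 ± 1.59 FPKM in naive WT cells. It was lower in the knockout (log2 fold change -1.61, limma adjusted p = 0.0179), while Uqcr10 itself was called higher. A link between them was not tested. This transcript was singled out after its values were seen.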
